A study of Mus musculus with 16 samples.

Results

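The 8 genes followed here, of 17721 counted, were *Serpinb11*, *Bex2*, *Fabp5*, *Emb*, *Csrp2*, *Pdk4*, *A230065H16Rik* and *Tmem59l*. They were chosen by name, as genes that lead the basal cells of the terminal end bud (TEB) in these same data but lie outside the published TEB signature of *Mycn*, *Csn3*, *Slc6a15* and *Tbx2*. Their high level in TEB basal cells is therefore what selected them, and it is described below without a test. Their levels in other classes relative to TEB basal cells follow from the same choice and are likewise only described. What selection did not use is the difference between locations within luminal cells and within fibroblasts and, for 6 of the 8, between the basal cells of duct and nipple.

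The fragments came from pubertal mammary glands of C57BL/6 mice 5 weeks old that carried Krt14-Cre and the Rosa26-mTmG reporter. All groups shared this genotype, in which the Krt14 promoter drives Cre, and the labels give no treatment. Single nipples (4 fragments), ducts (6) and TEBs (6) were dissected, dissociated and sorted into wells, and the 3' end of each transcript was counted by unique molecular identifiers (UMIs). The labels do not name the mouse behind each fragment, so the p-values measure the spread between fragments, which may share an animal.

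The TEB is the bulbous tip of a growing duct during puberty. Its outer cap cells are continuous with the basal, or myoepithelial, layer of the duct, and its inner body cells give rise to the luminal layer. Basal cells carry keratins 5 and 14 and smooth muscle proteins, whereas luminal cells carry keratins 8 and 18 and fall into estrogen receptor positive (ER+) and negative (ER-) groups. The genes below have different roles. *Serpinb11* encodes an intracellular serpin of clade B, and *Emb* encodes embigin, a membrane glycoprotein that escorts monocarboxylate transporters. *Fabp5* encodes a fatty acid binding protein, *Pdk4* a mitochondrial kinase that switches off the pyruvate dehydrogenase complex, and *Csrp2* a LIM domain protein known from smooth muscle. *Bex2* belongs to a family of small X-linked proteins, *Tmem59l* encodes a membrane protein related to *Tmem59*, and *A230065H16Rik* is an older name of *Lbhd2*.

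All 8 genes matched the GENCODE M21 annotation of GRCm38, the assembly also called mm10, and all are annotated as protein coding. *Serpinb11* lies on chromosome 1 at 107361198 to 107380475 on the plus strand, beside other clade B serpins. *Fabp5* lies on chromosome 3 (10012548 to 10016607, plus), *Pdk4* on chromosome 6 (5483351 to 5496309, minus) and *Tmem59l* on chromosome 8 (70483867 to 70487358, minus). *Csrp2* lies on chromosome 10 (110919789 to 110939622, plus), *A230065H16Rik* on chromosome 12 (111406809 to 111412090, plus), *Emb* on chromosome 13 (117208536 to 117274415, plus) and *Bex2* on the X chromosome (136066564 to 136068236, minus). *Emb* was the only one with another annotated gene inside its span (*Gm17509*, on the opposite strand), and that gene does not reach the end of the *Emb* transcript from which the reads derive. In the last 300 bases of each transcript, 0 of the 8 genes had another gene with 95% identity over at least 100 bases. The nearest match was *Bex1* to *Bex2*, with 78.9% identity.

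RefSeq promoter sequence (250 bases before to 50 after the start, GRCm38.p6) was at hand for 6 of the 8 genes, all but *Fabp5* and *Csrp2*. The 4 motifs searched on both strands, without overlap between them, were the TATA box TATAAA, the AP-1 site TGACTCA, the E-box CACGTG and the TEAD site CATTCC. These letters occur in 13.6%, 5.202%, 7.15% and 14.7% of 32851 promoters, respectively. Among the 6 promoters, TATAAA was found in that of *Bex2* (chrX:136068433-136068460, on the opposite strand and 213 bases upstream of the start) and CATTCC in that of *Tmem59l* (chr8:70487497-70487524, 165 bases upstream). The 2 windows are shown because they are the only matches, 5′ to 3′ on the gene's strand with the matched letters in capitals, and no motif was shared between members.
Bex2: aatagaagggaTTTATAcagatggaaag
Tmem59l: gtcctctttgtCATTCCcggcacgcaga

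The deposited table held 1419 cells, of which 1318 passed the study's limits. Fragments gave 83 to 93 cells and 1856141 to 5233122 UMIs each, spike-ins included. Clusters were given a class by marker genes, which yielded 294 basal-like cells (97 from nipple, 115 from duct and 82 from TEB), 426 ER+ luminal-like cells (43, 211 and 172), 178 ER- luminal-like cells (48, 81 and 49) and 252 fibroblast-like cells (116, 38 and 98). A further 78 cells were myeloid-like, and 90 were left without a class. The basal-like class came from 2 clusters that split by location. One held 96 nipple, 115 duct and 1 TEB cell and was led by *Cnn1*, *Myh11* and *Actg2*, and the other held 81 TEB cells and 1 nipple cell and was led by *Gpx2* and *Sostdc1*, with 5 of the 8 genes among its 10 leading genes.

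The TEB cluster had a lower summed level of basal markers than the other basal cells. All 8 basal markers were detected in it, and their summed level was 6179 CPM in TEB, 21234.5 CPM in duct and 17752 CPM in nipple (CPM, pooled UMIs scaled to the same total). *Krt14* was at 360 to 935 CPM in the 6 TEB fragments, against 3977 to 4872 CPM in duct and 5229 to 6275 CPM in nipple. *Trp63*, the transcription factor of the basal lineage, leaned the other way. It was at 29.7 to 143 CPM in TEB (median 63.3), 0 to 41.6 CPM in duct (median 18.2) and 8.96 to 36.7 CPM in nipple (median 19.5). Luminal markers were detected as well. The 9 ER+ markers summed to 1764 CPM in TEB, 4854 CPM in duct and 3251 CPM in nipple, with 9 of 9 detected in each, and the ER- markers to 3153 CPM (8 of 8 detected), 6570 CPM (7 of 8) and 4254 CPM (6 of 8). *Krt8* was at 1096 to 1583 CPM in the TEB fragments, 3385 to 3868 CPM in duct and 1961 to 2617 CPM in nipple, and the ER- factor *Elf5* was at 0 to 2.55 CPM in TEB and at 0 in the others. Summed fibroblast markers in the basal-like class were 356 CPM in TEB, 354 CPM in duct and 1451 CPM in nipple, with 6 of 6 markers detected in each. TEB basal-like cells were also sequenced more deeply, with a median of 43900.5 UMIs per cell against 23039 in duct and 21458 in nipple. The part of these differences in the values below was not tested.

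Counts were summed over the cells of a class in each fragment (at least 5 cells) and expressed as CPM, normalised by the TMM method of edgeR. In the basal-like class all 8 genes had a higher mean in TEB than in either other location, which is what they were chosen for. Over all genes, 18.7% differed between TEB and nipple and 10.4% between TEB and duct by edgeR's quasi-likelihood test at an adjusted p of 0.05. A comparison with TEB and a comparison with duct draw on the same nipple fragments, so their values are given side by side only.

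*Serpinb11*, *Bex2* and *Tmem59l* had no UMI in nipple basal cells and were present in both duct and TEB. *Serpinb11* was at 0 UMIs in each of the 4 nipple fragments, had 39.8 to 100.96 CPM in duct (median 71.3) and 95.6 to 354 CPM in TEB (median 276). The TEB fragment T31 lay at 95.6 CPM, below the 100.96 CPM of duct fragment D32, and the other 5 TEB fragments were above every duct fragment. Pooled *Serpinb11* counts gave 284 CPM in TEB, at least 206-fold above the 3 UMIs that a count of 0 over the nipple cells allows, and duct was at least 43.7-fold above the same limit. The TEB level was 4.73 times that of duct (95% interval 4.02 to 5.58, which like all count intervals here covers counting error only), with a fitted log2 difference of 1.89 (SE 0.32).

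*Bex2* followed the same order with more spread. It had 0 UMIs in the 4 nipple fragments, 3.79 to 149 CPM in duct (median 21.2) and 110 to 372 CPM in TEB (median 199). Duct fragment D61, at 149 CPM, lay among the TEB values and held 65 of the 111 *Bex2* UMIs of duct basal cells. The pooled TEB level was 7.44 times that of duct (6.11 to 9.13).

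*Tmem59l* was the gene with the smallest step between duct and TEB. It was at 0 in every nipple fragment, at 41.9 to 75.4 CPM in duct (median 50.96) and at 63.9 to 154 CPM in TEB (median 88.4), so the last 2 ranges overlapped. The pooled TEB level of *Tmem59l* was 1.86 times that of duct (1.53 to 2.27) and at least 68.0-fold above the nipple limit. Nipple and duct fragments did not overlap, whereas duct and TEB fragments did.

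*Fabp5* and *Emb* were present in basal cells of all locations and highest in TEB. *Fabp5* was at 705 to 1664 CPM (median 1045) in TEB and at 67.7 to 169 CPM in duct (median 131). In the 4 nipple fragments it was at 145, 106, 183 and 333 CPM. Every TEB fragment was above every other fragment, and the pooled TEB level was 10.0015 times that of duct (8.89 to 11.3) and 5.92 times that of nipple (5.33 to 6.59).

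*Emb* was at 441 to 663 CPM in TEB (median 591), at 112 to 234 CPM in duct (median 156) and at 147, 99.5, 40.2 and 78.5 CPM in the nipple fragments. It had the smallest relative spread in TEB of the 8 genes, 575 ± 90.6 CPM (SD, n = 6). The TEB fragments again stood clear of all others, 3.86 times above duct (3.47 to 4.29).

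*Csrp2* was the gene with the widest gap between duct and TEB. It was low in nipple (1.99, 13.3, 7.54 and 5.74 CPM) and duct (1.89 to 18.1 CPM, median 9.04) and at 265 to 823 CPM in TEB (median 370). The pooled TEB level was 54.2 times that of duct (36.0 to 85.8) and 62.6 times that of nipple (37.8 to 112). Nipple and duct, in contrast, overlapped fully, with 15 and 23 UMIs in all.

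*Pdk4* and *A230065H16Rik* had their lowest mean in nipple, a middle one in duct and the highest in TEB. *Pdk4* was at 15.9, 6.63, 10.05 and 15.3 CPM in nipple, at 27.0 to 57.3 CPM in duct (median 49.8) and at 56.2 to 316 CPM in TEB (median 177). One TEB fragment, T33 at 56.2 CPM, reached down to the duct range.

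*A230065H16Rik* had 15 UMIs in nipple basal cells, all from 1 cell of fragment N21. That cell, with 30949 UMIs, was the only nipple cell in the TEB basal cluster and held 0 UMIs of the other 7 genes. Duct fragments spanned 10.1 to 128 CPM (median 50.1) and TEB fragments 132 to 440 CPM (median 287), so the lowest TEB fragment lay just above the highest duct fragment. Conversely, the only TEB cell in the other basal cluster came from T31, was shallow (7395 UMIs) and held 3 UMIs of *Fabp5*, 1 of *Emb* and 1 of *Csrp2*.

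**Figure D1:**
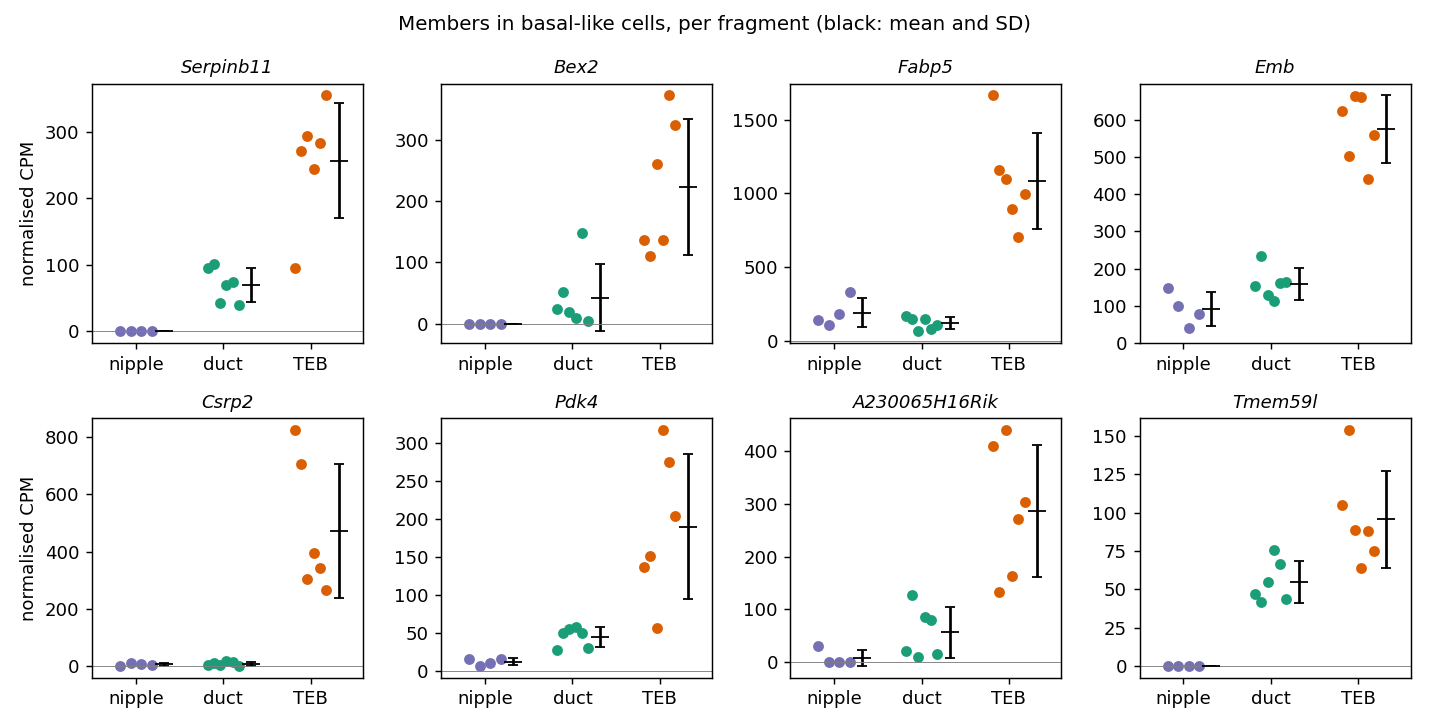
Each panel plots 1 gene in basal-like cells, with normalised CPM on the y axis, 1 point per fragment (4 nipple, 6 duct, 6 TEB) and the mean with its SD in black. *Fabp5*, *Emb*, *Csrp2* and *A230065H16Rik* show no overlap between TEB and duct, whereas TEB and duct fragments of *Serpinb11*, *Bex2*, *Pdk4* and *Tmem59l* overlap. The genes were chosen for a high level in TEB, and the share of all genes without such overlap was not computed.

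Duct against nipple is a comparison that did not select *Bex2*, *Pdk4*, *Emb*, *Fabp5*, *Csrp2* or *A230065H16Rik*, and it asks whether their levels already differ outside the end bud. *Bex2* and *Pdk4* passed as higher in duct in a fit over all 3 locations, 2 of the 6 genes, where 6.29% of all 7316 genes tested passed in either direction (edgeR, adjusted p of 0.05). *Pdk4* rose by a log2 of 1.90 (SE 0.48, adjusted p = 0.011 by edgeR), and every duct fragment was above every nipple fragment. *Bex2* had 0 UMIs in nipple, and its duct level exceeded that limit at least 27.8-fold (adjusted p = 0.014 by edgeR), with UMIs in 6 of 6 duct fragments. Without D61, a choice made after seeing the data, the 46 *Bex2* UMIs of the other 5 duct fragments gave at least 13.9-fold. With only duct and nipple in the fit *Bex2* did not pass the filter on low counts and was not tested, so it entered the test through the TEB cells in which it was chosen as high, and its call is no evidence beyond these values. *Pdk4* lost its call without nipple fragment N22 (adjusted p = 0.057 by edgeR), with cells thinned to equal depth (0.25) and with only duct and nipple in the fit (0.066), and *Bex2* lost it without N24 (0.051). Over the alternatives that gave a value, adjusted p ranged from 0.0037 to 0.25 for *Pdk4* and from 4.3e-08 to 0.051 for *Bex2*. Scaling without regression gave none for either gene, and the fit of only these locations gave none for *Bex2*.

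The other 4 genes did not pass. *Emb* was at 159 ± 42.003 CPM in duct (SD, n = 6) and 91.4 ± 44.6 CPM in nipple (SD, n = 4), a log2 difference of 0.78 (SE 0.26, adjusted p = 0.069 by edgeR). *Fabp5* leaned the other way, by a log2 of -0.68 (SE 0.29, adjusted p = 0.19 by edgeR). *Csrp2* differed by 0.25 (SE 0.59) and *A230065H16Rik* by 2.85 (SE 1.04, adjusted p = 0.14 by edgeR). Without N21, whose single cell held all its nipple UMIs, *A230065H16Rik* passed (adjusted p = 0.01 by edgeR), as did *Emb* (0.015), and *A230065H16Rik* also passed with cells thinned to equal depth (0.0079) and with classes set by marker lists per cell (0.0024). *Fabp5* passed as lower in duct with no filter on low counts (0.016) and with cells thinned (0.045). *Serpinb11* and *Tmem59l* were known from earlier results to separate duct from nipple and are left as described above.

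The share of cells with a UMI was compared at equal depth. Each cell was thinned to 5000 UMIs, and 1 cell, from the ER- class of nipple, was shallower and left out. *Fabp5* was then detected in 90.2% of 82 TEB basal cells, 20.9% of 115 duct cells and 25.8% of 97 nipple cells, and *Emb* in 87.8%, 37.4% and 23.7%. *Csrp2* was detected in 68.3% of TEB cells, 6.09% of duct cells and 3.09% of nipple cells. The others were found in 31.7% (*Tmem59l*) to 56.1% (*A230065H16Rik*) of TEB basal cells and in 9.57% (*Bex2*) to 15.7% (*Tmem59l*) of duct cells. Without thinning, *Serpinb11* was found in 67.1% of TEB and 22.6% of duct cells, against 47.6% and 11.3% after it. In nipple, 0 of 97 cells held a UMI of *Serpinb11*, *Bex2* or *Tmem59l*, an exact upper limit of 3.73% on the share of cells with a UMI at this depth, which is no limit on the share of cells that express the gene. It treats the 97 cells as independent, although they came from 4 fragments.

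The published signature gave a scale for these shares. *Csn3* was detected in 75.6% of thinned TEB basal cells, *Slc6a15* in 25.6%, *Mycn* in 9.76% and *Tbx2* in 8.54%. *Csn3*, the kappa casein gene, was also at 4318 ± 1323 CPM (SD, n = 4) in ER- luminal-like cells of TEB, above its 911 ± 219 CPM (SD, n = 6) in TEB basal cells. *Slc6a15* was at 84.3 ± 10.5 CPM and *Mycn* at 25.3 ± 18.2 CPM in TEB basal cells (SD, n = 6).

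Single TEB basal cells held several of the genes, which follows from their choice for a high level there. Whether they occur together more often than their separate detection gives was not tested. After thinning, all 82 cells held at least 2 of the 8 genes, 68 (82.9%) held at least 4, and the median was 5. In single fragments this count ran from 6 of 8 cells in T32 to 20 of 23 in T42. In duct basal cells 4 of 115 (3.48%) held at least 4 of the genes and 28.7% held none of them, and in nipple 0 of 97 held 4. Those 4 duct cells came from D31, D52 (2 cells) and D61. In luminal cells the most that any cell held was 3.

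**Figure D2:**
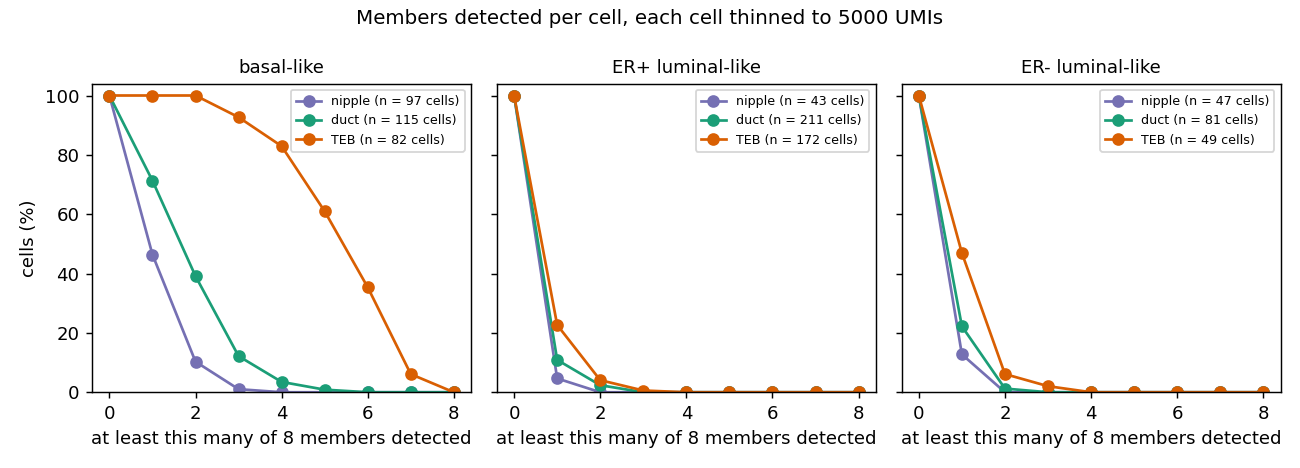
Each line gives the percentage of cells (y axis) with at least the number of the 8 genes on the x axis detected after thinning to 5000 UMIs, for nipple, duct and TEB in 3 epithelial classes. TEB basal-like cells keep 82.9% at 4 genes, and every other line is at or under 3.48% there, a contrast that follows from the choice of genes.

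Among the TEB basal cells, however, the genes varied with little relation to each other. The Spearman correlation of CPM over the 82 cells ranged from -0.20 to 0.34 over the 28 pairs, with a median of 0.07, and 19 pairs were above 0. The highest values were *Emb* with *Csrp2* (0.34) and *Fabp5* with *A230065H16Rik* (0.33). In counts this sparse, and with cells that share fragment and depth, these weak values are a description only. *Emb* and *Fabp5* were spread over most cells, with 26.6% and 24.4% of their UMIs in the top 8 cells, whereas *Serpinb11*, *Bex2* and *Pdk4* had 52.6%, 52.2% and 51.1% there. *Serpinb11* reached 1333 CPM in 1 cell and was detected in 55 of the 82.

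Cells scored as S or G2/M phase (37) and G1 phase (45) both carried all 8 genes in TEB. *Emb* was at 634 CPM in cells scored as S or G2/M and 487 CPM in those scored as G1, and higher in the former in 6 of 6 TEB fragments. *Csrp2* was at 489 and 366 CPM (higher in 5 of 6), *Serpinb11* at 327 and 236 CPM (4 of 6), *Bex2* at 325 and 240 CPM (4 of 6) and *Tmem59l* at 105 and 81.2 CPM (4 of 6). *Pdk4* was at 217 and 211 CPM (2 of 6) and *A230065H16Rik* at 301 and 316 CPM (3 of 6). *Fabp5* was at 853 and 1262 CPM and higher in S or G2/M in 1 of 6 fragments. The former cells were deeper, with a median of 49956 against 33455 UMIs, the differences were not tested, and the phase scores are not read as a measure of division.

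In duct basal cells the UMIs sat in few cells. The 5 cells with most *Bex2* UMIs held 69.4% of its 111, and the top 5 cells for *A230065H16Rik* held 62.5% of its 136. For *Emb* and *Fabp5* these shares were 24.3% and 32.1%. *Tmem59l* was the most even of the genes absent from nipple, with UMIs in 43 of the 115 duct cells and 34.9% in the top 5.

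Whether the genes belong to basal cells alone was then asked across the named classes. The 90 cells without a class enter none of the ratios below. In TEB, duct and nipple their pooled *Bex2* was at 25.8, 36.2 and 0 CPM and *Emb* at 39.6, 25.6 and 115 CPM. *Csrp2* was at 66.7, 52.2 and 109 CPM there, *Fabp5* at 25.1, 71.4 and 47.7 CPM and *Pdk4* at 4.63, 21.3 and 41.8 CPM. *Serpinb11*, *Tmem59l* and *A230065H16Rik* reached at most 2.64 CPM there. In TEB fragments the ER+ luminal-like cells held 10 UMIs (*Tmem59l*) to 147 UMIs (*Csrp2*) of each gene. The basal level was 22.8 times (*Csrp2*) to 128 times (*Pdk4*) that in ER+ cells of TEB, and no TEB fragment's ER+ value reached a basal one. Against ER- cells, the ratio was 10.7 for *Fabp5* (9.24 to 12.5), 12.5 for *Bex2* (9.19 to 17.3), 14.7 for *Csrp2* (11.3 to 19.6), 41.3 for *A230065H16Rik* (24.5 to 75.7) and 100 for *Pdk4* (39.1 to 370). *Serpinb11* and *Emb* had 2 UMIs each in ER- cells of TEB, which gave ratios of 267 (73.7 to 2208) and 531 (147 to 4384), and *Tmem59l* had 0, so that its basal level was at least 58.7-fold higher. Classes set by marker lists per cell kept 66 basal-like cells of TEB. With them the excess over ER- cells of TEB was smaller for *Emb* and *Fabp5*, at a log2 of pooled CPM + 1 of 4.27 and 2.47. With cells thinned to equal depth it was larger for *Fabp5* (4.15), as was that of *Emb* over ER+ cells (6.24). All these ratios follow from the choice of genes and are given as a description.

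The UMIs to be expected from RNA of other wells were estimated from fibroblast markers and *Lyz2*, *Csf1r* and *Tyrobp* in epithelial cells. Relative to the sum of all cells of a fragment, this admixture was 7.19 ± 7.02% in ER+ cells of TEB (SD, n = 6) and 3.42 ± 0.91% in ER- cells (SD, n = 4). It predicts 54.2 UMIs of *Serpinb11* in ER+ cells of TEB, where 19 were seen, 18 of them in fragment T43. It likewise predicts 34.5 of *Pdk4* (13 seen), 14.2 of *Tmem59l* (10), 51.6 of *A230065H16Rik* (32), 54.9 of *Bex2* (39), 179 of *Fabp5* (142) and 105 of *Emb* (108). *Csrp2* was at 147 UMIs against 101.4 predicted, above it in 3 of 6 fragments. These sums rest on fragment T43, where the estimated share was 21.1%, and differ by fragment. T43 held fewer than 5 fibroblast-like cells, so its share rests on few of the cells that carry most of the markers used. Whether this raised the estimate was not tested. *Bex2* was above the prediction in 5 of 6 fragments, *A230065H16Rik* and *Emb* in 4, *Fabp5* in 3, *Pdk4* in 1 and *Serpinb11* and *Tmem59l* in 0. Without T43, a choice made after seeing the data, the other 5 fragments held 116 UMIs of *Fabp5* against 56.1 predicted, 109 of *Csrp2* (50.5), 45 of *Emb* (27.5), 26 of *Bex2* (13.2) and 22 of *A230065H16Rik* (14.7), all above the prediction. They held 6 of *Pdk4* (9.64), 2 of *Tmem59l* (4.38) and 1 of *Serpinb11* (10.6), below it.

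In ER- luminal-like cells 4 genes were above the prediction in every TEB fragment. The share of all genes above such a prediction was not computed, so this count has no background to be read against. *Fabp5* had 183 UMIs in TEB against 13.7 predicted, above it in 4 of 4 fragments, and 92 against 7.07 in duct, above it in 6 of 6. *Csrp2* had 55 UMIs against 11.2 in TEB, 74 against 5.22 in duct and 55 against 12.7 in nipple, above it in every fragment. *Bex2* had 43 against 5.02 in TEB and 27 against 2.37 in duct, but these came from 7 and 4 cells. *A230065H16Rik* had 14 UMIs against 4.37 in TEB, 7 of them in fragment T34. *Pdk4* had 4 against 3.24. *Serpinb11*, *Tmem59l* and *Emb* had 2, 0 and 2 UMIs in ER- cells of TEB, against 4.02, 1.31 and 8.10 predicted.

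**Figure D3:**
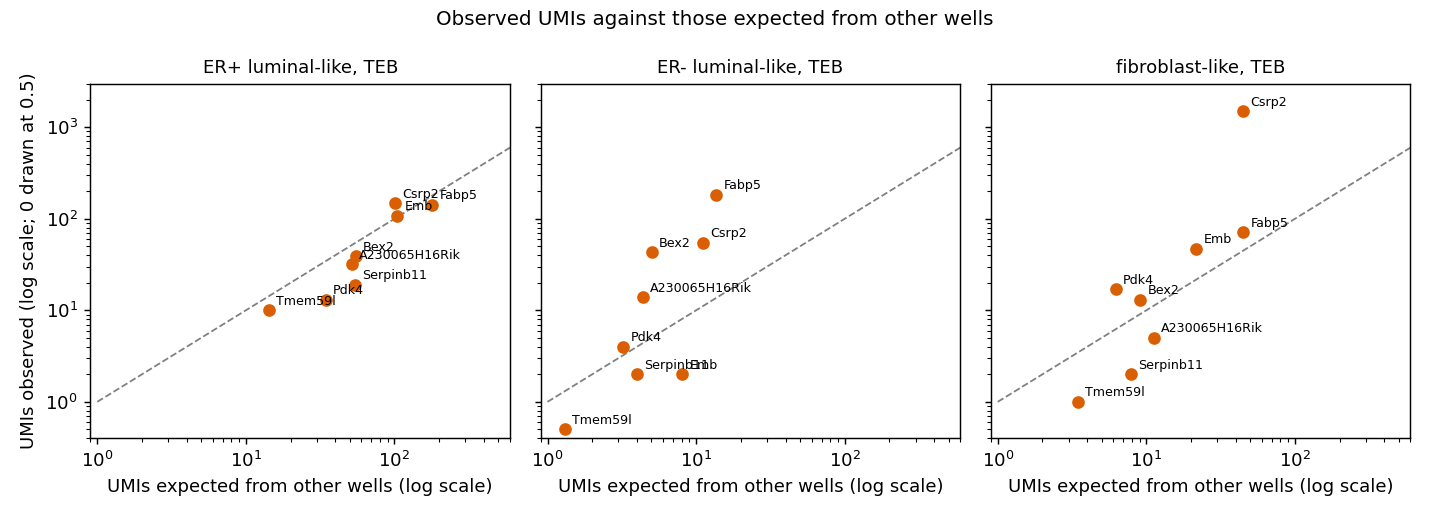
UMIs of each gene seen in ER+ luminal-like, ER- luminal-like and fibroblast-like cells of TEB (y axis, log scale, 0 drawn at 0.5) against those expected from RNA of other wells (x axis, log scale), with the dashed line at equality. *Fabp5* at 183 UMIs and *Csrp2* at 55 stand above the line in ER- cells and *Csrp2* at 1500 in fibroblast-like cells, and the ER+ sums include fragment T43, without which 5 of the 8 genes are above their prediction (*Fabp5*, 116 against 56.1). The share of all genes above such a prediction was not computed.

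Location was tested within the luminal classes, which selection did not use, for the genes that passed the filter on low counts. In ER+ cells these were *Csrp2*, *Emb* and *Fabp5*, and edgeR called 0 of 3 for TEB against nipple, TEB against duct and duct against nipple, where 5.53%, 1.65% and 2.01% of 8770 genes passed. At an unadjusted p under 0.05 the counts were 2, 1 and 0, beside 1609, 892 and 1206 of all 8770 genes. DESeq2 called 1, 0 and 0, and its share over all genes is not given here. *Fabp5* in ER+ cells was at 0, 3.25, 5.24 and 0 CPM in nipple, at 0 to 17.7 CPM in duct (median 5.55) and at 3.95 to 38.8 CPM in TEB (median 13.4), with overlap throughout. Its log2 difference between TEB and nipple was 3.06 (SE 1.08, adjusted p = 0.094 by edgeR, 0.042 by DESeq2, 0.027 to 0.21 over the alternatives). *Csrp2* in ER+ cells was at 17.7 ± 9.38 CPM in TEB (SD, n = 6) and 3.31 ± 2.20 CPM in nipple (SD, n = 4), a log2 difference of 2.37 (SE 0.95, adjusted p = 0.15 by edgeR). Beside these, RNA from other wells was predicted to give 179 UMIs of *Fabp5* (142 seen) and 101.4 of *Csrp2* (147 seen) in ER+ cells of TEB. Without T43 this was 56.1 of *Fabp5* (116 seen) and 50.5 of *Csrp2* (109 seen). The part of such RNA in the differences was not tested.

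In ER- cells 2 of the 8 genes passed the filter, *Csrp2* and *Fabp5*. EdgeR called 0 of 2 in TEB against nipple, TEB against duct and duct against nipple, where 4.57%, 1.14% and 1.63% of 5706 genes passed. At an unadjusted p under 0.05 the counts were 1, 0 and 0, beside 963, 550 and 625 of all 5706 genes. DESeq2 called 0. *Fabp5* was at 59.0, 84.8, 91.4 and 131 CPM in the TEB fragments T32, T33, T34 and T42 with enough ER- cells, at 16.9 to 93.1 CPM in duct (median 22.6) and at 26.8, 4.75, 74.6 and 0 CPM in nipple. Nipple fragment N23 and duct fragment D51 reached into the TEB range. The log2 difference between TEB and nipple was 1.71 (SE 0.79, adjusted p = 0.26 by edgeR), and without N23 it was 3.17 (adjusted p = 0.044). *Csrp2* was at 44.1 ± 20.0 CPM in nipple (SD, n = 4) and 27.8 ± 11.9 CPM in TEB (SD, n = 4). The log2 difference was -0.66 (SE 0.82, adjusted p = 0.77 by edgeR).

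*Csrp2* was shared with fibroblast-like cells. It stood at 234, 216, 357 and 273 CPM in the nipple fragments, at 300, 235, 390 and 224 CPM in the duct fragments with enough fibroblast-like cells and at 505, 394, 402, 319 and 145 CPM in those of TEB. These values overlap with the 265 to 823 CPM of TEB basal cells, and the pooled ratio of TEB basal to TEB fibroblast-like cells was 1.09 (1.01 to 1.17). After thinning, 60.2% of TEB and 55.3% of duct fibroblast-like cells held a UMI of *Csrp2*, as did 58 of 116 from nipple, against 4.88% of TEB myeloid-like cells. Basal cells of duct and nipple, with 23 and 15 UMIs, had lower levels than the fibroblast-like cells of the same fragments.

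For TEB against nipple in fibroblast-like cells, edgeR called 0 of the 3 genes that passed the filter (*Csrp2*, *Emb* and *Fabp5*), where 1.54% of 8489 genes passed. At an unadjusted p under 0.05 the count was 0, beside 850 of all 8489 genes, and DESeq2 called 0. *Csrp2* differed by a log2 of 0.39 (SE 0.31). Most nipple fibroblast-like cells (115 of 116) fell in a cluster led by *Penk* and *Mmp3* and most of those from TEB (64 of 98) in one led by *Akr1c18* and *Smpd3*.

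*Emb* was also present in myeloid-like cells, which had too few per fragment for a test. Their pooled level was 123 CPM over 41 TEB cells, 174 CPM over 25 duct cells and 13.996 CPM over 12 nipple cells, and thinned detection was 31.7%, 36.0% and 8.33%. In TEB 107 UMIs were seen in the 5 fragments with at least 5 such cells, against 14.2 predicted. In ER- luminal cells of TEB 2 UMIs of *Emb* were found. *Fabp5* was at 184 CPM in the duct myeloid-like cells (73 UMIs in 5 of 25 cells), 58.02 CPM in those of TEB and 20.994 CPM in those of nipple. In TEB 58 of its UMIs were seen in the same 5 fragments against 25.8 predicted, above it in 4 of 5, and thinned detection was 9.76% in TEB and 3 of 25 cells in duct.

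**Figure D4:**
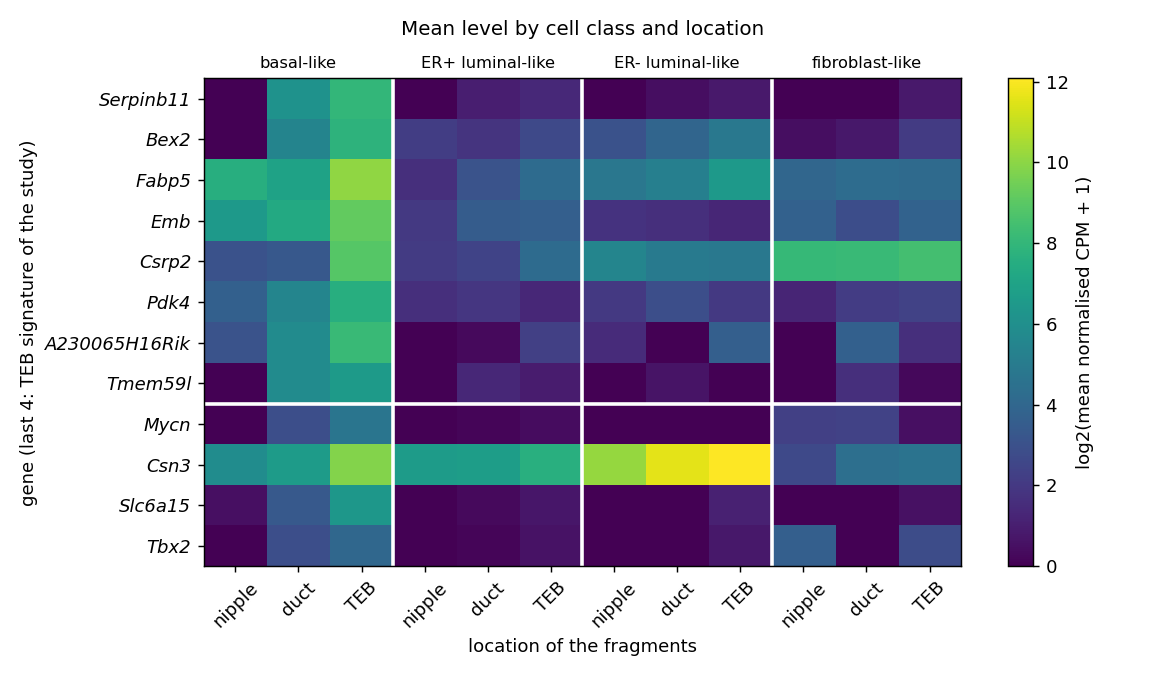
Mean normalised CPM on a log2(CPM + 1) colour scale for the 8 genes and, under the white line, the 4 signature genes, by class and location (columns). *Serpinb11* and *Tmem59l* are bright in duct and TEB basal-like cells (69.9 and 256 CPM, 54.8 and 95.8 CPM), *Csrp2* also in fibroblast-like cells at all locations (270, 287 and 353 CPM) and *Fabp5* faintly in ER- luminal-like cells of TEB (91.5 CPM).

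The genes whose pattern was most like each of the 8 were sought over 46 class-by-fragment sums of the 3 epithelial classes among 8077 genes with a mean of at least 10 CPM, by the Pearson correlation of log2(CPM + 1). These sums share libraries and depth, so r is given as a description. *Serpinb11* and *Tmem59l* were each other's nearest gene (r = 0.95), and both had *Capn6*, which encodes a calpain family protein, as the next (0.93 and 0.92). *Serpinb11* and *A230065H16Rik* (r = 0.87) shared *Slc6a15*, an amino acid transporter of the TEB signature, at 0.91 and 0.86. *A230065H16Rik* was nearest to *Sema3b* (0.88) and *Bex2* to *Col11a1* (0.77). *Fabp5* was close to *Vwa1* (0.82) and *Col9a3* (0.81), *Emb* to the matrix gene *Vcan* (0.89) and *Irx4* (0.88), and *Pdk4* to *Fbln2* (0.88), *Moxd1* (0.86) and *Bmp7* (0.84). *Csrp2* stood apart, with *Gpx2* at 0.76 and no other gene over 0.68.

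Relatives of the 8 genes were tested in the basal-like class, from family lists of 73 genes of which 60 were in the table and 26 passed the filter. For TEB against nipple, 5 rose and 4 fell (9 of 26), and for TEB against duct 4 rose and 5 fell, against the 18.7% and 10.4% of all genes. The medians over the 26 were log2 0.22 and 0.10, and those over all genes were 0.05 and 0.04. With cells thinned to equal depth, 15 of these genes were tested and 5 were called in each comparison. Against duct, 3 were called with the replicate block, though the label numbers were not found to pair samples, and 3 with only label numbers starting with 3. The families went in both directions. Genes with few or no UMIs in nipple, such as *Bex4* and *Serpinb10*, can pass the filter through the locations where they are high. Both are among the 9 called against nipple, and their calls add nothing beyond their values.

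Of the 3 clade B serpins tested, 1 rose and 1 fell against nipple and 2 fell against duct. *Serpinb5* (maspin) fell from 547 ± 56.8 CPM in nipple (SD, n = 4) and 635 ± 139 CPM in duct (SD, n = 6) to 126 ± 26.0 CPM in TEB (SD, n = 6), a log2 of -2.13 (SE 0.19, adjusted p = 2.9e-10 by edgeR) against nipple and -2.35 (SE 0.18, adjusted p = 1.1e-11 by edgeR) against duct. *Serpinb6a* fell against duct by a log2 of -1.07 (adjusted p = 0.0046 by edgeR). *Serpinb10*, the 1 that rose, had 2 UMIs in nipple, 30.8 ± 29.8 CPM in duct and 37.2 ± 36.4 CPM in TEB (SD, n = 6). Its call against nipple adds nothing beyond these values.

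Among the X-linked relatives of *Bex2*, the genes that passed were higher in TEB. *Ngfrap1*, also called *Bex3*, rose by a log2 of 1.37 (SE 0.25, adjusted p = 0.00014 by edgeR) against nipple and 0.92 against duct (adjusted p = 0.0034). *Bex4* had 0 UMIs in nipple, a mean of 8.93 CPM in duct and 31.7 ± 19.5 CPM in TEB (SD, n = 6), and its call against nipple adds nothing beyond these values. *Bex1* rose by 3.49 (SE 1.23, adjusted p = 0.043 by edgeR). *Tceal8* rose against duct by 0.75 (SE 0.22, adjusted p = 0.024 by edgeR). In all, 3 of the 7 tested Bex and Tceal genes rose against nipple, *Bex4* among them, and 2 against duct. Over all genes, 18.7% and 10.4% were called in either direction.

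Of the 2 relatives of *Fabp5* tested, 1 rose and 1 fell against nipple, and likewise against duct. *Crabp2*, which carries retinoic acid to its nuclear receptor, fell by a log2 of -5.19 (SE 0.56, adjusted p = 1.8e-08 by edgeR) from 154 ± 20.1 CPM in duct (SD, n = 6) to 5.38 ± 7.48 CPM in TEB (SD, n = 6).

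Of the monocarboxylate transporters and their chaperones, the family list set beside *Emb*, 2 of 4 fell against nipple and 1 against duct. *Nptn* (neuroplastin), which like embigin escorts monocarboxylate transporters, fell by a log2 of -0.89 (SE 0.25, adjusted p = 0.012 by edgeR) against nipple and -0.79 (adjusted p = 0.024) against duct. *Slc16a1*, the transporter MCT1, fell by -1.64 against nipple (SE 0.49, adjusted p = 0.017 by edgeR), from 75.8 ± 43.4 CPM (SD, n = 4) to 23.5 ± 8.47 CPM (SD, n = 6). *Bsg* (basigin) was at 633 ± 62.8 CPM in TEB and 497 ± 54.1 CPM in nipple and did not pass. The 6 tested genes of the pyruvate dehydrogenase complex, its kinases and phosphatases had a median log2 of 0.29 against nipple and 0.16 against duct. Of the LIM proteins, *Crip2* fell against duct by -0.55 (SE 0.14, adjusted p = 0.0052 by edgeR), and *Tmem59* rose against duct by 0.56 (SE 0.17, adjusted p = 0.026 by edgeR).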

How the data were processed

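Single cells of 16 mammary fragments (4 nipple, 6 duct, 6 TEB) were profiled by 3' SMART-seq with UMIs in 96-well plates. The authors deposited raw UMI counts per gene and cell, made with UMI-tools, Trim Galore, FastQC, STAR (mm10, unique alignments) and featureCounts. Versions, annotation and strand setting are not given in the sources used here. Groups came from the sample labels.

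Cells with 5000 to 120000 UMIs, 200 to 6000 genes and at most 5% spike-ins were kept. They were clustered in Seurat 5.3.0 (R 4.3.3) on 2000 variable genes and 14 components, with spike-in share, cell cycle and gene number regressed, at resolution 0.5, and classes were set by marker lists. No doublet caller was run. Of the 95 well barcodes, 33 recurred in all 16 fragments, and 0 cells had identical profiles. Spike-ins took 0.758% of UMIs and stayed out of all sums.

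Counts were summed per class and fragment where at least 5 cells were present. The quasi-likelihood test of edgeR 4.0.16 was used, with TMM scaling, its default filter on low counts and Benjamini-Hochberg adjustment over all genes tested (threshold 0.05). The locations shared 1 estimate of the spread. Ratios of pooled counts carry exact 95% counting intervals, and a count of 0 was bounded by 3 UMIs. Sums held 302554 to 1210315 UMIs in basal-like cells. DESeq2 1.42.0 and other filters, depths, classes and left-out fragments were alternatives. The fit was tested on simulated data. Transcript ends were compared with blastn 2.17.0, and Python 3.11.15 was used for descriptions.

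The 8 genes and all lists were chosen with earlier results of these data known. Named besides the 8 were the 3 genes with the highest correlation with each, relatives that passed a test (at most 4 per list), the signature genes and class markers. Some genes that this rule names are not reported here.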

Additional observations from a re-analysis of the deposited data

Results flagged for a closer look

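Of 62 groups of 4 to 6 fragments, 19 held 1 fragment far from the others, where chance gives about 1 in 20 for continuous values. That rate was not computed for sparse counts like these, many of which rest on a few UMIs in 1 fragment with the others at or near 0. In basal-like cells these were *Bex2* in duct fragment D61 (149 CPM, next 51.7) and *A230065H16Rik* in nipple fragment N21 (29.9 CPM from 15 UMIs of 1 cell, the others at 0).

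In ER+ luminal-like cells *Serpinb11* stood apart in D31 (4.51 CPM) and T43 (8.35 CPM), *Bex2* in N21 (14.5 CPM) and T42 (19.0 CPM), and *Emb* in N23 (12.2 CPM), D62 (38.2 CPM) and T43 (29.2 CPM). *A230065H16Rik* did so in D32 (1.43 CPM) and *Tmem59l* in T43 (3.71 CPM). Fragment T43 also had the highest estimated share of RNA from other wells in this class, 21.1%, and its part in these values was not tested.

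In ER- luminal-like cells the fragments were D31 (2.21 CPM) and T42 (3.11 CPM) for *Serpinb11*, N22 (28.5 CPM) for *Bex2*, D51 (93.1 CPM from 34 UMIs) for *Fabp5* and N24 (9.50 CPM) for *Emb*. *A230065H16Rik* stood apart in N23 (7.22 CPM) and T34 (31.997 CPM), and *Tmem59l* in D32 (3.27 CPM). Apart from *Fabp5*, these rest on 1 to 7 UMIs.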

How the results depend on the processing

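Of the counts of called genes under all alternatives, 242 stayed within 1.5 times the reported count and 11 did not. The number of the 6 genes higher in duct than nipple basal cells was 1 to 4 when single fragments were left out (4 without N21, 1 without N22 or N24) and 0 with only these locations in the fit, which tests fewer genes and samples. In ER+ cells, TEB against nipple gave 1 called gene (*Fabp5*) under DESeq2 and 1 in cells with at least 10000 UMIs, and in ER- cells 0 to 1 with single fragments left out. The other luminal and fibroblast counts were 0 to 0. Related genes called in basal cells numbered 5 against nipple and 5 against duct with cells thinned, 3 against duct with only label numbers starting with 3, and 7 to 10 in either comparison with single fragments left out. The cause was not tested.

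Label numbers 31 and 32 are shared by duct and TEB. Same-numbered samples did not deviate together (r from -0.0144 to 0.0445), so the numbers were not taken to pair them. With them as a replicate block 3 related genes were called against duct, and 0 of the 8 in ER+ cells.

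Differences that changed sign, none of which passed the test, were these (log2). *Csrp2* in ER- cells, TEB against duct, was 0.17 at 10000 UMIs, 0.22 with marker classes and 0.65 with at least 10 cells per fragment, and in ER+ cells, duct against nipple, -0.18 with marker classes. With single fragments left out, *Csrp2* ranged from -0.060 to 0.79 in basal cells (duct against nipple), from -0.22 to 1.07 in ER+ cells (duct against nipple) and from -0.37 to 0.54 in ER- cells (TEB against duct). *Emb* ranged from -0.12 to 0.29 in ER+ cells (TEB against duct) and from -0.37 to 0.66 in fibroblast-like cells (TEB against nipple). *Fabp5* ranged from -0.10 to 1.86 in ER- cells (duct against nipple) and from -0.53 to 0.66 in fibroblast-like cells.

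Scaling without regression left 1 nipple basal cell and gave no basal comparison with nipple, and 10000 UMIs per cell gave none for nipple fibroblast-like cells. Depth limits the genes at 0 in nipple to bounds.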

Other observations

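Genes near *Bex2* were looked at after their values were seen. *Arxes1* had 3, 9 and 119 UMIs in nipple, duct and TEB basal cells, and *Arxes2* had 1, 18 and 111. These counts are a description only, since a test on genes picked by the same values would add nothing.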
